A study of Homo sapiens with 4 samples.

Results

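Glioma cells and neural stem cells are recognised by a small set of marker genes, and 9 of them were examined on arrays of LN229 cells in which *SOX2* was knocked down. They were *NES*, *PROM1*, *GFAP*, *OLIG1*, *OLIG2*, *MSI1*, *POU3F2*, *SALL2* and *S100B*, taken by gene symbol from the array's annotation. These 9 of 20483 gene symbols on the array were carried by 10 of its 33096 probes, 2 of them for *GFAP*. LN229 is an established human glioblastoma line. The series compared LN229 cells transfected with siRNA against *SOX2* with LN229 cells given a no-target control siRNA, called mock knockdown, with 2 arrays in each group. All 4 samples were grown in DMEM medium, to which the study's methods add fetal bovine serum. They are 1 cell line in culture, without the other cells of a tumour. The study describes the replicates as separate transfections, so p-values measure the spread between transfections of 1 line.

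*SOX2* encodes a high mobility group transcription factor that keeps neural stem cells undifferentiated and is active in gliomas. *NES* (nestin) and *GFAP* encode intermediate filament proteins, the former typical of neural precursors and the latter of astrocytes. *PROM1* encodes the surface glycoprotein CD133, used to sort tumour-initiating cells, and *MSI1* (Musashi) an RNA-binding protein of neural precursors. *OLIG1* and *OLIG2* encode basic helix-loop-helix factors of the oligodendrocyte lineage. *POU3F2* and *SALL2* encode transcription factors which, together with *SOX2* and *OLIG2*, can return differentiated glioblastoma cells to a stem-like state. *S100B* encodes a calcium-binding protein of glial and melanocytic cells.

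Signals are given as the deposited normalized signal divided by the 75th percentile of the probes on the same array, called the scaled signal. A scaled signal of 1 therefore equals that percentile. The scanner's signal-to-noise ratio (S/N) says how far a signal lies above its own error, and a probe was taken as detected on an array where S/N was over 3. Scaled signals of different probes cannot be compared with each other as amounts of RNA. Detection was reached by 65.1% and 64.6% of probes in mock and by 63.5% and 68.9% after *SOX2* knockdown. A probe entered the test if it was detected on both arrays of either group or of both, which held for 21256 probes. For *SOX2* itself the 2 mock arrays gave scaled signals of 0.467 and 0.701 (S/N 5.17 and 13.6), and the knockdown arrays 0.209 and 0.149. S/N on the knockdown arrays was 3.17 and 3.06, just over the limit of 3. The groups did not overlap, and the mean with the knockdown was 0.307 of the mock mean (log2 change -1.69, SE 0.28). By limma the Benjamini-Hochberg adjusted p was 0.117.

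One field of the labels, on the treatment, gives the line as SW620, which derives from a colon cancer, where all others name LN229. Of 16 genes of colon epithelium, 4 were detected on all 4 arrays, *VIL1*, *ELF3*, *FXYD3* and *TFF3*, and 4 on none, *CDH1*, *KRT20*, *CLDN7* and *CDH17*. The rest were detected on some arrays but not all. These were *CDX2* and *LGALS4*, both on the mock arrays only, and *EPCAM*, *CDX1*, *CEACAM5*, *CLDN3*, *CLDN4* and *GPA33*. *VIL1* encodes villin of the brush border, *TFF3* a secreted peptide of goblet cells, *CDH1* the epithelial cadherin and *KRT20* a keratin of gut epithelium. The summed scaled signal of the 16 was 16.1 to 16.2 in mock and 9.81 to 9.83 after knockdown. *FXYD3*, an ion transport regulator, gave 14.8 and 15.2 in mock and 8.88 and 8.10 after knockdown, and whether this has a part in the differences of the markers was not tested. Of the 9 markers, 7 were detected on all 4 arrays. Of 23 astrocyte genes 16 were detected on all 4 arrays and 5 on none, among these the defining markers *AQP4*, a water channel, and *SLC1A2*, a glutamate transporter. Of 14 genes of microglia, endothelium and mural cells, 6 were detected on all 4 arrays and 5 on none, *AIF1*, *CX3CR1*, *CSF1R*, *CDH5* and *CLDN5*. *PTPRC*, *PECAM1* and *VWF* were detected on some arrays but not all.

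Among the markers, *PROM1* and *MSI1* were detected on no array. After *SOX2* knockdown *OLIG2* was 1.34 times its mock mean, *SALL2* 0.647 times and *S100B* 0.734 times, each without overlap between the groups. *NES*, *GFAP*, *OLIG1* and *POU3F2* had overlapping groups. In RNA pooled from a culture, a change in the number of cells with a transcript and a change in its amount per cell cannot be told apart. None of the 7 passed the 2-fold cutoff of replicate means that the study used, against 2.61% of all probes tested (1.57% higher and 1.04% lower after knockdown). None passed an adjusted p of 0.05 by limma, nor did any probe on the array (0%, smallest adjusted p 0.0582). At an unadjusted p under 0.05, *OLIG2* and *SALL2* passed, 2 of 7 against 17.1% of all probes. Groups without overlap were found for 3 of 7 probes, against 47% of all probes tested, so the share among the markers was near that of the array as a whole.

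**Figure D1:**
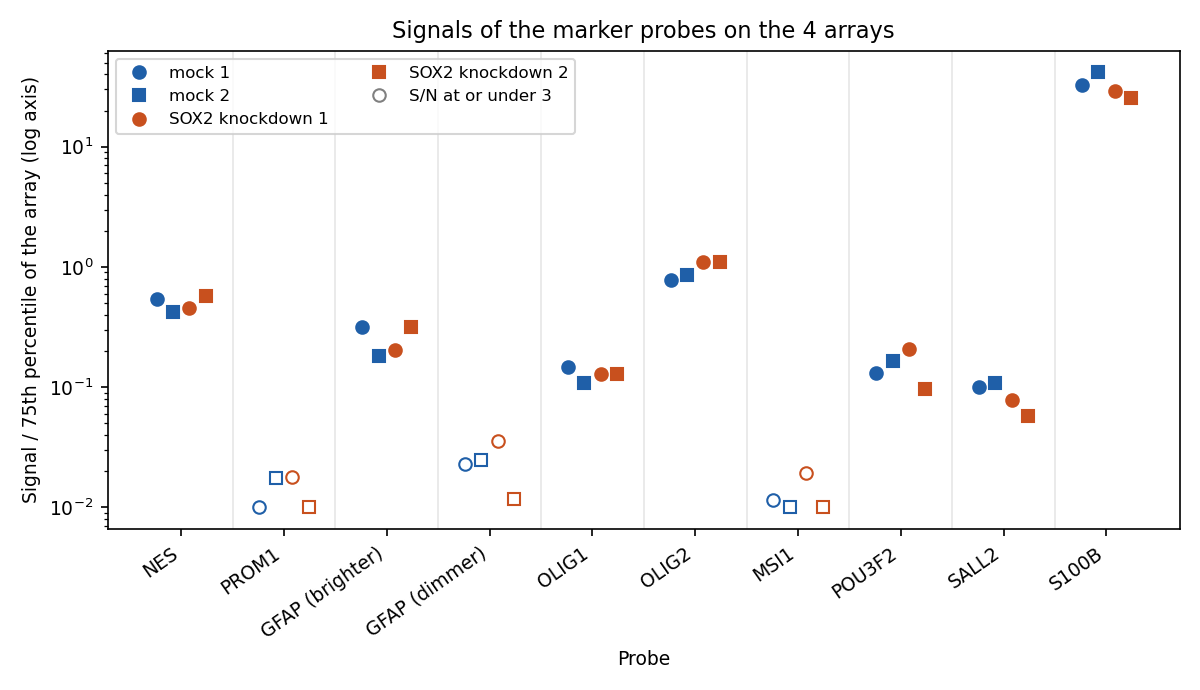
Scaled signal (signal divided by the array's 75th percentile, log axis) of the 10 marker probes on each of the 4 arrays, with mock arrays in blue and SOX2 knockdown arrays in orange. Open symbols have S/N at or under 3, which holds on all arrays for PROM1, MSI1 and the dimmer GFAP probe, and S100B lies between 25.3 and 41.4 on every array.

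Among the filament genes, *NES* had a scaled signal of 0.538 and 0.420 in mock (S/N 39.0 and 27.9) and of 0.456 and 0.569 after *SOX2* knockdown (S/N 30.0 and 37.5). One array of each group read high and the other low, so the groups overlapped. The means were 0.479 ± 0.0834 in mock and 0.512 ± 0.0800 after knockdown (SD, n = 2), a ratio of 1.07. The interval of this ratio by limma ran from 0.736 to 1.56 at 95% confidence, and the adjusted p was 0.893.

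*GFAP* was read by 2 probes under the same gene identifier. The brighter one gave 0.314 and 0.180 in mock (S/N 12.4 and 8.78) and 0.203 and 0.314 after knockdown (S/N 6.27 and 18.1). As for *NES*, mock replicate 1 and knockdown replicate 2 read high and the other two arrays low. The means were 0.247 ± 0.0943 and 0.259 ± 0.0781 (SD, n = 2), a ratio of 1.05. The log2 change was 0.09 with an interval from -0.88 to 1.06 and an adjusted p of 0.957 by limma. With 2 arrays a group, changes of nearly 2-fold lower and just over 2-fold higher thus lay within the interval. The dimmer probe had S/N between -0.04 and 1.33 and scaled signals from 0.0117 to 0.0356, and gives no comparison. *VIM*, which encodes the filament protein vimentin and is named here for its kinship to both, had means of 55.3 in each group.

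The surface and RNA-binding markers of stem cells were not measured above background. For *PROM1*, S/N was -0.75 and 0.65 in mock and 0.62 and -1.92 after knockdown. For *MSI1*, S/N was 0.74 and -1.31 in mock and 1.52 and 0.36 after knockdown. Both probes were below the limit on all 4 arrays, so no fold is given. A relative of *MSI1* was measured, and was picked out with its values known. *MSI2*, which encodes the second Musashi protein, had 4 probes that disagreed. Its brightest probe had scaled signals of 4.35 and 4.73 in mock and 3.47 and 3.20 after knockdown, a ratio of 0.735 with an unadjusted limma p of 0.0258, whereas the ratios of its other probes were 0.830, 0.965 and 1.63.

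The oligodendrocyte lineage factors differed in what they showed. *OLIG2* had scaled signals of 0.772 and 0.858 in mock (S/N 30.1 and 30.8) and 1.09 on both knockdown arrays (S/N 29.4 and 51.0). Both knockdown arrays lay above both mock arrays. The means were 0.815 ± 0.0603 and 1.09 ± 0.00245 (SD, n = 2), so the signal after knockdown was 33.8% higher. The log2 change was 0.42 (SE 0.13, interval from 0.07 to 0.78), with an unadjusted p of 0.029 and an adjusted p of 0.235 by limma. Of all probes tested, 21.2% were higher after knockdown without overlap. *OLIG1*, by contrast, had 0.147 and 0.108 in mock and 0.129 and 0.128 after knockdown, and both knockdown arrays lay between the mock arrays. Its ratio was 1.01, and its log2 change of 0.03 had an interval from -0.49 to 0.55 and an adjusted p of 0.975 by limma. The difference between the changes of *OLIG1* and *OLIG2* was not tested.

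Of the transcription factors linked to stem-like glioblastoma cells, *SALL2* had scaled signals of 0.101 and 0.109 in mock (S/N 11.3 and 13.4) and 0.0787 and 0.0570 after knockdown (S/N 8.98 and 6.64). Neither knockdown array reached the lower of the mock arrays. The mean went from 0.105 ± 0.00591 to 0.0679 ± 0.0153 (SD, n = 2), a ratio of 0.647. This log2 change of -0.64 (SE 0.20, interval from -1.18 to -0.11) was the largest in size among the 7 marker probes tested, with an unadjusted p of 0.0286 and an adjusted p of 0.234 by limma. Of all probes tested, 25.8% were lower without overlap, and 10.5% passed a cutoff of 1.5-fold, as *SALL2* alone did among the markers. With another background correction (normexp) its log2 change was -0.25, and it was then no longer the largest, as *S100B* had -0.48 and *OLIG2* 0.31. *SALL1*, its relative and picked out with its values known, had 0.450 and 0.407 in mock and 0.632 and 0.659 after knockdown, a ratio of 1.51 with an adjusted p of 0.159 by limma.

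*POU3F2* had scaled signals of 0.130 and 0.166 in mock (S/N 4.69 and 7.28) and 0.208 and 0.0973 after knockdown (S/N 4.07 and 3.49). The knockdown arrays lay on either side of both mock arrays and differed from each other 2.14-fold, so the probe gave no direction. The means of 0.148 ± 0.0250 and 0.153 ± 0.0781 (SD, n = 2) had a ratio of 1.03, while the mean log2 change was -0.05 with an interval from -1.13 to 1.03. By limma the adjusted p was 0.983. Its relatives *POU3F3* and *POU3F4* were not detected on any array.

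*S100B* had scaled signals of 32.9 and 41.4 in mock (S/N 65.5 and 69.3) and 29.2 and 25.3 after knockdown (S/N 68.7 and 78.5). The knockdown arrays were again the lower ones, by a gap smaller than the distance between the mock arrays. The means were 37.1 ± 6.07 and 27.2 ± 2.70 (SD, n = 2), so the signal after knockdown was 26.6% lower. The log2 change was -0.44 (SE 0.18, interval from -0.92 to 0.04), with an unadjusted p of 0.0641 and an adjusted p of 0.327 by limma. With 2 arrays a group, an exact permutation test of 1 probe cannot go below a two-sided p of 0.333.

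**Figure D2:**
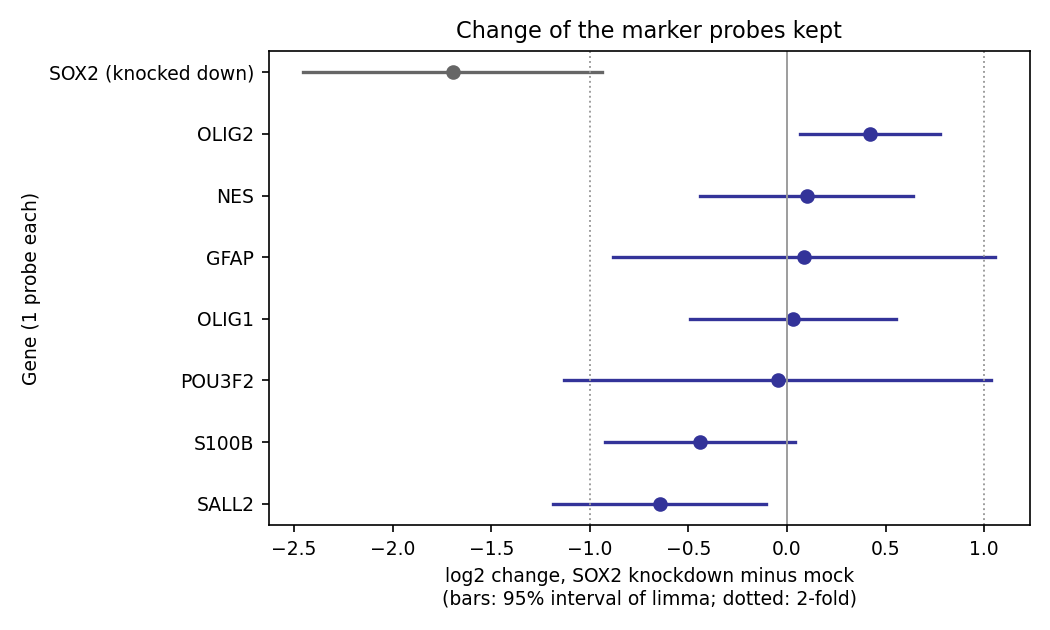
The log2 change (SOX2 knockdown minus mock, x axis) of the 7 marker probes tested and of SOX2, as points with 95% intervals from limma, with dotted lines at 2-fold. The intervals of OLIG2 and SALL2 leave out 0 before adjustment for multiple testing, and those of GFAP and POU3F2 reach from near -1 to 1.

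The S100 family, which shares the calcium-binding fold of *S100B*, differed among its members. *S100A1*, the glial and muscle relative, had scaled signals of 3.55 and 4.58 in mock and 1.51 and 1.43 after knockdown, a ratio of 0.361 (log2 change -1.46, SE 0.18, adjusted p 0.0945 by limma). *S100A2*, an epithelial member, had 0.218 and 0.228 in mock and 0.481 and 0.460 after knockdown, a ratio of 2.11. *S100A9*, a subunit of calprotectin in myeloid cells, had 0.0578 and 0.0334 in mock, the latter at an S/N of 1.38, and 0.282 and 0.225 after knockdown, so no fold is given. Of 36 genes from the families of the markers, 22 were tested, with 4 higher and 8 lower without overlap, against 21.2% and 25.8% of all probes. Past 2-fold were 2 higher, against 1.57% of all probes, and 1 lower, against 1.04%. With detection on all 4 arrays required, which leaves out *S100A9*, 1 was higher past 2-fold. Their median log2 change was 0.00, as it was over all probes tested.

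Other genes of the same cell states were counted from lists in the same way, each count of groups without overlap to be read against 21.2% higher and 25.8% lower over all probes tested. Of 13 further transcription factors of glioma stem-like cells, 10 were tested, with none higher and 6 lower without overlap, and a median log2 change of -0.27. *SOX1*, a close relative of *SOX2* that the study also singled out, had scaled signals of 0.287 and 0.336 in mock and 0.104 and 0.0956 after knockdown, a ratio of 0.320. *HEY2*, a Notch effector, had a ratio of 0.465. Their adjusted p values by limma were 0.0721 and 0.101. Of 25 other neural stem cell genes, 20 were tested, with 4 higher and 6 lower without overlap, 50% in all against 47% of all probes, and a median log2 change of 0.05. In that list *FABP7*, the brain fatty acid binding protein of radial glia, had a mean of 21.1 ± 2.06 in mock and 10.4 ± 0.180 after knockdown, and *PAX6*, a factor of radial glia, had a ratio of 1.67.

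Of 23 astrocyte genes, 18 were tested. Without overlap, 2 were higher and 10 lower, against 21.2% and 25.8% of all probes, and the median log2 change was -0.29. *GLUL*, the glutamine synthetase of astrocytes, had a mean of 4.29 ± 0.346 in mock and 2.12 ± 0.230 after knockdown, and *NDRG2*, a marker of astrocytes, had a ratio of 0.489. *S100A1*, given above, is on this list too. Of 23 genes of the oligodendrocyte lineage, 18 were tested, with 2 higher and 10 lower and a median of -0.23. There *CSPG4*, the NG2 proteoglycan of progenitors, had scaled signals of 6.80 and 7.73 in mock and 3.09 and 2.82 after knockdown. *PDGFRA*, a growth factor receptor of progenitors, had 0.101 and 0.102 in mock and 0.0282 and 0.0403 after knockdown, the former of these at an S/N of 0.94. None of these genes passed an adjusted p of 0.05 by limma. At an unadjusted p under 0.05, 7 astrocyte and 8 oligodendrocyte lineage genes were lower and none higher, against 9.16% and 7.9% of all probes.

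Of 24 neuron genes, 18 were tested, with 6 higher and 4 lower without overlap, against 21.2% and 25.8% of all probes, and a median log2 change of 0.15. *DLX2*, a homeobox factor of interneuron precursors, had scaled signals of 0.109 and 0.113 in mock and 0.310 and 0.334 after knockdown, a ratio of 2.90. Of 21 mesenchymal glioma genes, 16 were tested, with 9 higher and 3 lower and a median of 0.13. *CEBPB*, a factor of the mesenchymal state, had a ratio of 1.78. The adjusted p of *DLX2* was 0.0675 by limma and that of *CEBPB* 0.165. Of the list of microglia, endothelium and mural cell genes, 6 were tested, with 1 higher and 3 lower without overlap and a median of -0.38. *COL4A1*, a basement membrane collagen, had a ratio of 0.326 and *KDR*, a receptor for vascular endothelial growth factor, one of 0.439, with adjusted p of 0.0835 and 0.0990 by limma, while *FLT1*, another receptor for that factor and picked out with its values known, had a ratio of 1.29.

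**Figure D3:**
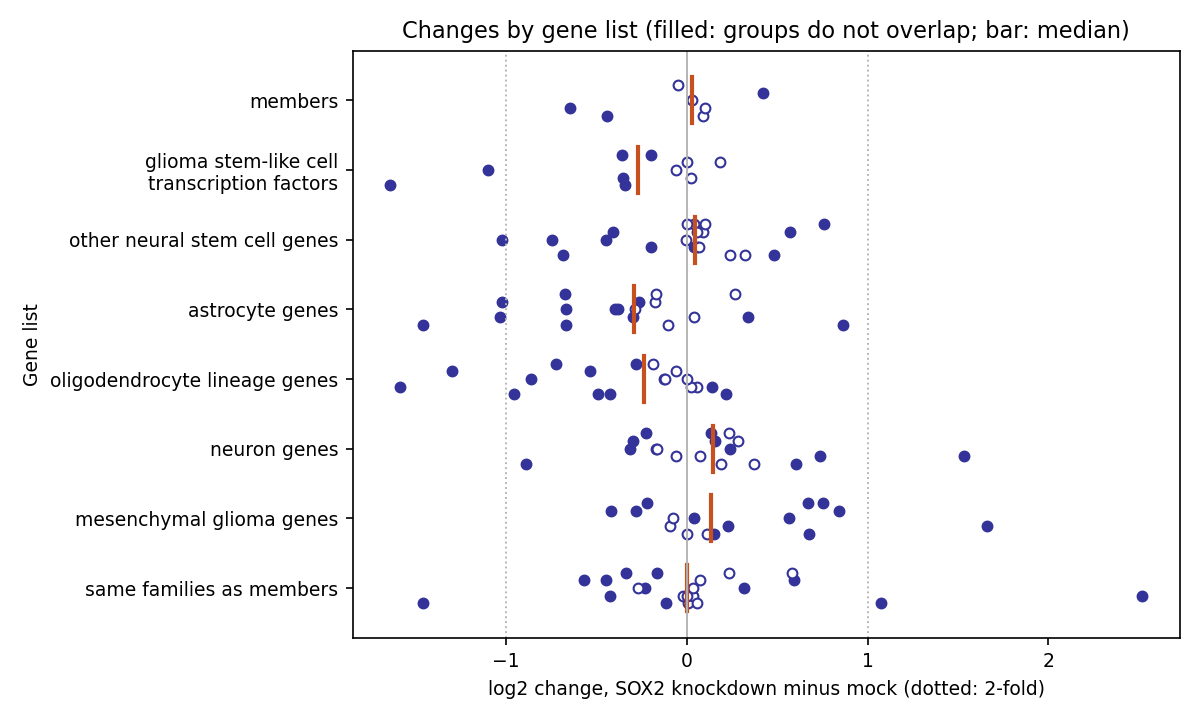
The log2 change (SOX2 knockdown minus mock, x axis) of each tested gene, 1 point a gene, by list, with bars at the list medians and filled points where the groups do not overlap. The astrocyte and oligodendrocyte lineage medians lie at -0.29 and -0.23 and the mesenchymal one at 0.13, while the 7 markers lie between -0.64 and 0.42.

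By Pearson's r over the 4 arrays, the list genes whose log2 signals ran most like those of *SALL2* were *NFIB* (r = 0.998), *GAP43* (r = 0.997) and *NFIA* (r = 0.987). Of 134 list genes 12 had an r over 0.95 to *SALL2*, and 6.17% of all probes did. The 4 points come from 2 groups, so these values describe 4 arrays and no more. *NFIA* and *NFIB* encode nuclear factor I proteins of glial development, and *GAP43*, a protein of growing axons, was detected on the mock arrays only.

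Promoter windows from RefSeq (GRCh38.p14, the 250 bases before each gene's start) were at hand for 4 of the 9 markers, and those of *SALL2*, which had the largest difference, and *POU3F2*, which held a match to a SOX motif, are shown, each 5′ to 3′ on the gene's strand, with the match in capitals.
*SALL2*, chr14:21537122-21537371, minus strand: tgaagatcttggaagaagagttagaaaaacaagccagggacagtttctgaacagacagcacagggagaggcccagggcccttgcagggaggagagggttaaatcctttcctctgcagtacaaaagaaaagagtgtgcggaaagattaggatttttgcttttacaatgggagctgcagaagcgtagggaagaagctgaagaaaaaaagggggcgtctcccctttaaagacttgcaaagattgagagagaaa
*POU3F2*, chr6:98834324-98834573, plus strand: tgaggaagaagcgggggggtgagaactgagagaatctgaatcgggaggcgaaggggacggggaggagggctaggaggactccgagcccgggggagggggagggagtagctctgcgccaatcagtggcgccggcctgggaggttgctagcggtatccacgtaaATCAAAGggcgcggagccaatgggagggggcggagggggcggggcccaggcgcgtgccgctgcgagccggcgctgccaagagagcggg
The search covered both strands of each window for the motifs listed below. The study's own *SOX2* consensus, wwTGnwTw (w for A or T, n for any base), was not searched for. The window of *POU3F2* held ATCAAAG, which began 88 bases before the start. Of the motifs searched, the window of *SALL2* held no match, nor did that of *NES*, while 1 of the 4 windows of *PROM1* held one. Of 35116 RefSeq windows of this length, the motif ATCAAAG was in 2.26%, the motif AACAAAG in 4.5%, the motif TACAAAG in 2.35%, the motif TTCAAAG in 3.8% and the motif CATTGTT in 2.87%. At least 1 of these motifs was in 14.2%. A match describes letters only, and binding was not measured on these arrays.

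**Figure D4:**
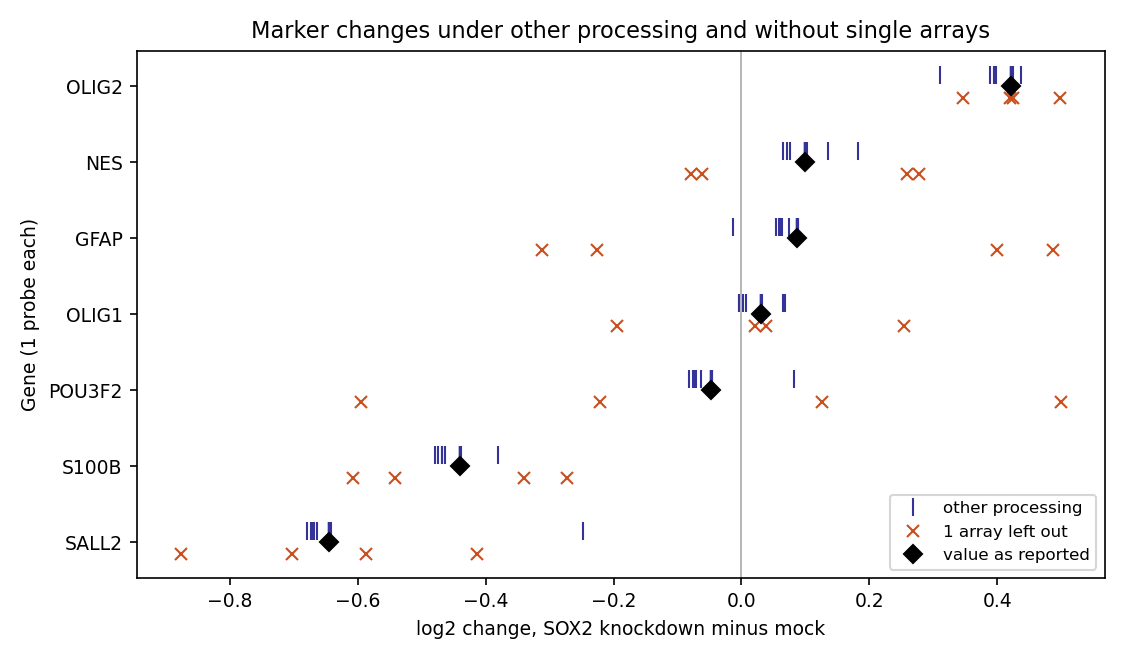
The log2 change (SOX2 knockdown minus mock, x axis) of the 7 marker probes as reported (diamonds), under other processing (ticks) and with 1 array left out (crosses). OLIG2 stays above 0 and S100B and SALL2 stay below 0 under each, while NES, GFAP, OLIG1 and POU3F2 fall on both sides of 0 when single arrays are left out. For OLIG2, S100B and SALL2 the crosses could not change side, as their groups do not overlap, and several ticks repeat the reported value.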

How the data were processed

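Biotin-labelled cRNA made from total RNA was read by chemiluminescence on 1-colour Applied Biosystems oligonucleotide arrays, 1 per sample. Groups came from the source names and replicate numbers from the titles. The deposited scanner files give intensity columns that the authors' scanner software normalized (linear, version not given in the sources used here), with a standard error. The signal-to-noise score and the flags are further deposited columns. The table that the authors processed holds a linear ratio per probe and array and served as an alternative.

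Of 37842 features, controls were left out, as were another 210 carrying flag codes from 5000 upwards, codes whose meaning is not stated. Signals were scaled to the 75th percentile within the array (6.06 and 6.88 in mock, 6.74 and 5.96 after knockdown), floored at 0.01 and put on the log2 scale. Probes were kept single, where the methods average by gene identifier. The test was limma 3.58.1 (lmFit, eBayes, R 4.3.3), two-sided, with Benjamini-Hochberg adjustment over 21256 probes. A run on simulated data checked the mean estimated change. Its arrays were drawn as independent, so it does not speak for the p-values of the real arrays. The number of arrays limits the precision. The replicate numbers were checked for pairing: over the probes kept, the mock and knockdown replicate differences correlated at r = -0.48. Arrays of the same number thus did not run together, and no pairing was used. Mock replicate 1 tended instead to run with knockdown replicate 2. The fit took the arrays as independent, which this value does not bear out, and its source was not tested.

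The markers and gene lists were chosen with earlier results of these data known. Of 204 list entries 202 were found (190 by symbol, 11 by accession, 1 by synonym). A list gene with several kept probes is given by the brightest. Named from each list were up to 3 genes a direction past 2-fold without overlap, else the 2 largest changes among genes detected on all arrays, with 1 gene not reported here. Coordinates are those of RefSeq on GRCh38.p14, as the files name no build. Probe and protein sequences were not used here.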

Additional observations from a re-analysis of the deposited data

How the results depend on the processing

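*OLIG2*, *SALL2* and *S100B* kept their direction under all 20 alternatives of processing, pairing and left-out arrays. Many of these could not change it. Leaving out an array cannot reverse groups that do not overlap, and the floors, S/N filters, variance trend and blocks repeated the reported change. With all arrays kept, their adjusted p by limma ran from 0.126 to 0.783, 0.102 to 0.716 and 0.118 to 0.734. No marker passed an adjusted p of 0.05 in these fits. Leaving out 1 array at a time gave log2 changes of 0.35 to 0.50 for *OLIG2*, -0.88 to -0.41 for *SALL2*, -0.61 to -0.27 for *S100B*, -0.0796 to 0.28 for *NES*, -0.31 to 0.49 for *GFAP*, -0.19 to 0.25 for *OLIG1* and -0.59 to 0.50 for *POU3F2*, and a lone array was then assumed to vary like the other group. With normexp background correction the change was -0.0139 for *GFAP*, 0.0819 for *POU3F2* and -0.25 for *SALL2*, and 2 markers had groups without overlap. That of *OLIG1* was -0.0032 after quantile scaling and -0.0041 after median scaling. A cutoff of 1.5-fold took 1 marker (*SALL2*).

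Over all probes, the 554 past 2-fold became 232 with normexp, 363 with a floor of 0.05, 1373 without an S/N filter, 302 with S/N over 3 on all 4 arrays, 2234 at 1.5-fold, 119 at 3-fold, and 782 to 1192 with 1 array left out (1192 without mock replicate 1, 868 without mock replicate 2, 1135 without knockdown replicate 1 and 782 without knockdown replicate 2). The 0 probes past an adjusted p of 0.05 by limma (3626 at an unadjusted p under 0.05) became 826 with median scaling, 776 with no further scaling, 758 with the authors' table, 5 with S/N over 3 on all 4 arrays and 287 with a variance trend. In the 3 largest of these limma took the variance of all probes as equal. *SOX2* was then past the threshold, at -1.73, -1.72 and -1.72. With normexp its log2 change was -1.10, with an adjusted p of 0.231 by limma.

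With the replicate number as a block, 0 probes passed, and *OLIG2*, *SALL2* and *S100B* had log2 changes of 0.42, -0.64 and -0.44 with adjusted p of 0.702, 0.567 and 0.734. The crossed pairing, chosen after seeing the data, gave 0 calls too. Among lists, the median of the colon genes was 0.09 when averaged by gene identifier and 0.10 with normexp, against -0.12, and -0.01 where detection on every array was required. With normexp those of the other neural stem cell genes and of the marker families were -0.02 and -0.05, of the astrocyte genes -0.15, of the stem-like cell factors -0.15 and of microglia, endothelium and mural cells -0.19. The mesenchymal median was 0.07 when averaged by gene identifier. The scan date as a block was not run, as the files give none, and no marker was dim in 1 group and bright in the other, so no lower bounds were computed.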

Other observations

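The replicate differences of the 2 groups ran in opposite directions for 6 of the 7 marker probes tested: where mock replicate 1 read above mock replicate 2, knockdown replicate 1 read below knockdown replicate 2, or the reverse. This held for 70.9% of all probes tested. *OLIG1* was the exception among the markers.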
